A study of Mus musculus with 6 samples.

Results

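The calcium pumps and buffers described here are 5 genes of mouse skeletal muscle, Atp2a1, Atp2a2, Casq1, Casq2 and Pvalb. They were taken by gene symbol from a table of 11815 genes, and all 5 were found and passed the filter on low values. The RNA came from the gastrocnemius, a mostly fast-fibred muscle of the calf, of mice aged 15 weeks on a C57BL/6 background. The WT group had 3 libraries (replicates 2, 3 and 4). The lnc-ORA KO group had 3 libraries (replicates 1, 2 and 3) from mice made with Cas9 mRNA and a pair of guide RNAs, in which 5147 bp with the whole transcript of the long non-coding RNA lnc-ORA were deleted. Founders were mated with wild-type mice, and the labels do not give the number of founder lines behind the KO libraries. The study was about the role of lnc-ORA in fibre type conversion.

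A muscle fibre contracts when calcium leaves the sarcoplasmic reticulum, and it relaxes when calcium is removed from the cytosol. SERCA pumps move calcium back into the reticulum, calsequestrins hold it there, and parvalbumin binds it in the cytosol of fast fibres. Atp2a1 encodes SERCA1, the pump of fast fibres, and Atp2a2 encodes SERCA2, the pump of slow fibres and heart, which other cell types also use in a longer form. Casq1 encodes the skeletal form of calsequestrin and Casq2 the cardiac form, which slow fibres also make. Pvalb encodes parvalbumin, which in rodents is most abundant in the fastest fibres.

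Casq1 and Casq2 encode forms of the same buffer and stood 141-fold to 611-fold apart in level within a library, so their start regions are printed. Each sequence runs 5′ to 3′ on the gene's own strand, from 250 bases before to 50 bases after the transcript start in RefSeq (GRCm38.p6). Capitals mark E-boxes (CANNTG, searched on both strands), the core motif bound by myogenic factors such as MyoD. The Casq1 region lies at chr1:172219846-172220145 on the minus strand and the Casq2 region at chr3:102086165-102086464 on the plus strand.
Casq1: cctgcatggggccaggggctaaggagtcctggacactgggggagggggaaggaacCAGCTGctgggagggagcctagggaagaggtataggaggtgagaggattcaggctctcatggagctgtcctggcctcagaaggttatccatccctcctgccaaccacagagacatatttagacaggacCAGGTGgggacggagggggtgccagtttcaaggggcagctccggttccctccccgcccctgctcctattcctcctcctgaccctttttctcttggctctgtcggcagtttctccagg
Casq2: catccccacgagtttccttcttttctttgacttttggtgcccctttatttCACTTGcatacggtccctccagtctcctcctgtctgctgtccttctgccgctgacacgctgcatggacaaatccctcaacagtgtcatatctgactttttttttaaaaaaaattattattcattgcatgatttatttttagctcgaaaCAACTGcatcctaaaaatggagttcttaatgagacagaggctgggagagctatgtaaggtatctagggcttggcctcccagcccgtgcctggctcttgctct
Each region held 2 E-boxes. Those of Casq1 began 195 and 67 bases before the start and those of Casq2 began 200 and 52 bases before it. The first E-box of Casq1 read CAGCTG, a form that the Casq2 region did not hold. Over all 32851 start regions of this length, 72.3% held an E-box and 16.3% held CAGCTG. G and C made up 60.3% of the Casq1 region and 44.7% of the Casq2 region. The Atp2a1 region (chr7:126463024-126463323, minus strand) held 1 E-box, again CAGCTG, 55 bases before the start. The Pvalb region (chr15:78206351-78206650, minus strand) held 0. The letters TATAAA, found in 13.6% of all regions, matched none of these 4 regions on either strand. The E-box counts overlap, since every CAGCTG is also an E-box. The Atp2a2 region is not given here.

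The 6 libraries held 54370181 to 69693905 counted reads, recovered from the deposited RPKM values (reads scaled to gene length and library total). Libraries of a group differed beyond sampling noise (lowest chi-square over its degrees of freedom, 27.6). Separate animals are not stated in the labels, and the p-values therefore speak of the spread between these libraries, which may be technical. The level of lnc-ORA was not analysed here, and the genotype labels were taken as given. The fast-fibre contractile markers summed to 133997 to 152596 RPKM in WT and 150781 to 166419 in KO, and the slow-fibre markers to 202 to 1141 and 347 to 566 RPKM, as in a mostly fast muscle. Of the marker lists of other cell types, nerve and Schwann cell genes moved with genotype: 4 of 4 tested fell, beside 13.5% of all tested genes, in the limma test described below, and the 6 measured genes summed to 31.2 to 49.7 RPKM in WT and 7.14 to 9.86 in KO. The 4 were also called lower with libraries scaled to equal medians or without the 10 most abundant genes, and 2 were called when any 1 WT replicate was left out. Endothelial markers summed to 18.7 to 29.0 RPKM in WT and 15.6 to 17.0 in KO, with 1 of 6 called lower, a share near that of all tested genes. This was Cldn5, under 1 RPKM in every KO library, which likewise could enter the test only as lower. With any 1 WT replicate left out Cldn5 failed the filter and was not tested, and 0 endothelial markers were called.

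The 5 genes spanned a wide range of RNA levels, and the fast forms stood far above the slow or cardiac forms in every library. RPKM is a level per length of transcript, so these genes can be set side by side. In WT muscle Pvalb stood at 2289 ± 495 RPKM, Atp2a1 at 1875 ± 210, Casq1 at 1077 ± 281, Atp2a2 at 9.65 ± 8.13 and Casq2 at 4.21 ± 1.38 (SD, n = 3 each). The order was the same in KO muscle, with Pvalb at 2761 ± 356 RPKM, Atp2a1 at 1819 ± 220, Casq1 at 1359 ± 60.7, Atp2a2 at 7.90 ± 0.481 and Casq2 at 2.95 ± 0.612 (SD, n = 3 each). Among neighbours in that order, Pvalb and Atp2a1 overlapped between WT libraries, as did Atp2a2 and Casq2, and no neighbours overlapped between KO libraries. Among all 11815 genes Pvalb ranked between 25 and 39 by level in each library, Atp2a1 between 31 and 40, and Casq1 between 38 and 61. Atp2a2 ranked between 1227 and 4540 and Casq2 between 3159 and 4833.

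None of the 5 genes passed the test between genotypes. The test was limma on log2(RPKM + 1) across 7574 genes, with Benjamini-Hochberg adjustment at 0.05. It called 17.3% of all tested genes (1311), 3.83% higher and 13.5% lower in KO. At an unadjusted p under 0.05 the count among the 5 was also 0, and limma-voom on the recovered reads called 0. The WT and KO libraries overlapped for all 5 genes, whereas they did not overlap for 39.2% of all tested genes. The median log2 fold change of all tested genes was -0.089, and it shifted by 0.14 when libraries were scaled to their summed RPKM without the 10 most abundant genes. With that scaling 62.3% of the called genes were higher in KO, against 22.1% with the deposited scaling, and with equal library medians 45.7% were. The authors' own test, as deposited, gave 191 genes at an FDR under 0.05, 84 of them higher in KO. Its median log2 fold change over the genes tested here was 0.012. Small changes are therefore given relative to the median of all tested genes as well.

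**Figure D1:**
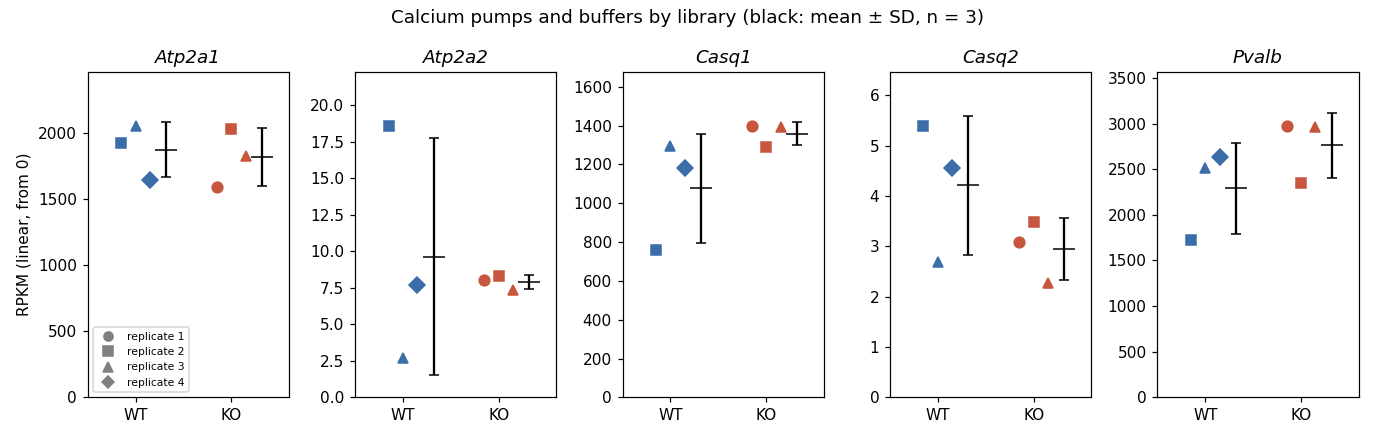
RPKM of the 5 genes in each library (points, with 1 symbol per replicate number) and the mean ± SD of each genotype (black, n = 3), with a separate linear axis from 0 for each gene. The groups overlap for every gene, and the WT points of Atp2a2 run from 2.69 to 18.6 while its KO points run from 7.36 to 8.29.

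Atp2a1, the fast pump, was the steadiest of the 5 genes among WT libraries. It stood at 1928, 2054 and 1644 RPKM in WT replicates 2, 3 and 4 and at 1593, 2034 and 1831 RPKM in KO replicates 1, 2 and 3. The lowest value was in KO replicate 1 and the highest in WT replicate 3, and the groups overlapped over nearly their whole range. The log2 fold change in KO was -0.045 (SE 0.13, 95% interval -0.34 to 0.25, limma adjusted p = 0.833), or 0.044 relative to the median of all tested genes. Its sign turned with the scaling: it was 0.084 with equal library medians and 0.14 without the 10 most abundant genes.

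Atp2a1 lies on chromosome 7 (126445858 to 126463108, minus strand, GRCm38), and its exons share 763 bases with those of Rabep2, a gene on the opposite strand. Of the 50-base stretches of the longest Atp2a1 transcript, 18.2% also occur, on the other strand, in Rabep2 transcripts. Rabep2, which encodes a protein of endosome traffic, was listed at 275 to 334 RPKM, and Atp2a1 stood at 561 to 728 RPKM per 100 RPKM of Rabep2. Whether counting used strand is unknown here, so the reads of these genes cannot be told apart in the shared stretch.

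Atp2a2, the slow and cardiac pump, had the widest range among WT libraries of the 5 genes. It stood at 18.6, 2.69 and 7.67 RPKM in WT replicates 2, 3 and 4, a range of 6.90-fold, and at 8.06, 8.29 and 7.36 RPKM in KO replicates 1, 2 and 3, a range of 1.13-fold. All 3 KO values lay between the lowest and the highest WT value. The log2 fold change was 0.055 (SE 0.50, 95% interval -1.08 to 1.20, limma adjusted p = 0.953). It was positive although the mean RPKM was lower in KO (7.90 against 9.65), since the log2 scale gives the high WT replicate 2 less weight. Without WT replicate 2 the log2 fold change was 0.65 (adjusted p = 0.192) and without WT replicate 3 it was -0.55 (adjusted p = 0.287). The values rested on 891 to 7877 reads per library, with a counting error of at most 3.35%, while the SD among WT libraries was 84.2% of their mean. The table gives 1 value per gene, so the short and long forms of SERCA2 are not separated.

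The slow-fibre markers were highest and lowest in the same libraries as Atp2a2, but the order between these differed. The 8 markers, all measured and none at 0, summed to 1141, 202 and 717 RPKM in WT replicates 2, 3 and 4 and to 512, 566 and 347 RPKM in KO replicates 1, 2 and 3. WT replicate 2 was highest and WT replicate 3 lowest, as for Atp2a2. WT replicate 4 lay above every KO library in the sum, but below KO replicates 1 and 2 in Atp2a2 (7.67 against 8.06 and 8.29 RPKM). Myh7, the slow myosin heavy chain, ran from 30.9 to 269 RPKM in WT and from 69.3 to 112 in KO. Per 100 RPKM of Myh7, Atp2a2 stood at 6.92, 8.71 and 6.18 RPKM in WT and at 7.83, 7.39 and 10.6 RPKM in KO, in the same order of replicates. Among WT libraries that ratio ranged 1.41-fold and the level 6.90-fold, while among KO libraries the ratio ranged 1.44-fold and the level 1.13-fold. Per 100 RPKM of the 8 summed markers, Atp2a2 stood at 1.07 to 1.63 RPKM in WT and at 1.46 to 2.12 in KO. The part of slow fibres in the Atp2a2 values was not tested. In whole-muscle RNA, fewer cells of a type and less RNA per cell cannot be told apart.

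By the root mean square difference of log2(RPKM + 1), centred on each gene's mean over the 6 libraries, the profile nearest to Atp2a2 among 1843 genes was that of Myh7 (0.30). Myl3 and Myl2, light chains of slow fibres and heart (0.30 and 0.31), and Tpm3, the slow tropomyosin gene (0.32), came next. Atp2a2 itself varied about its mean by 0.70 on that scale.

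**Figure D2:**
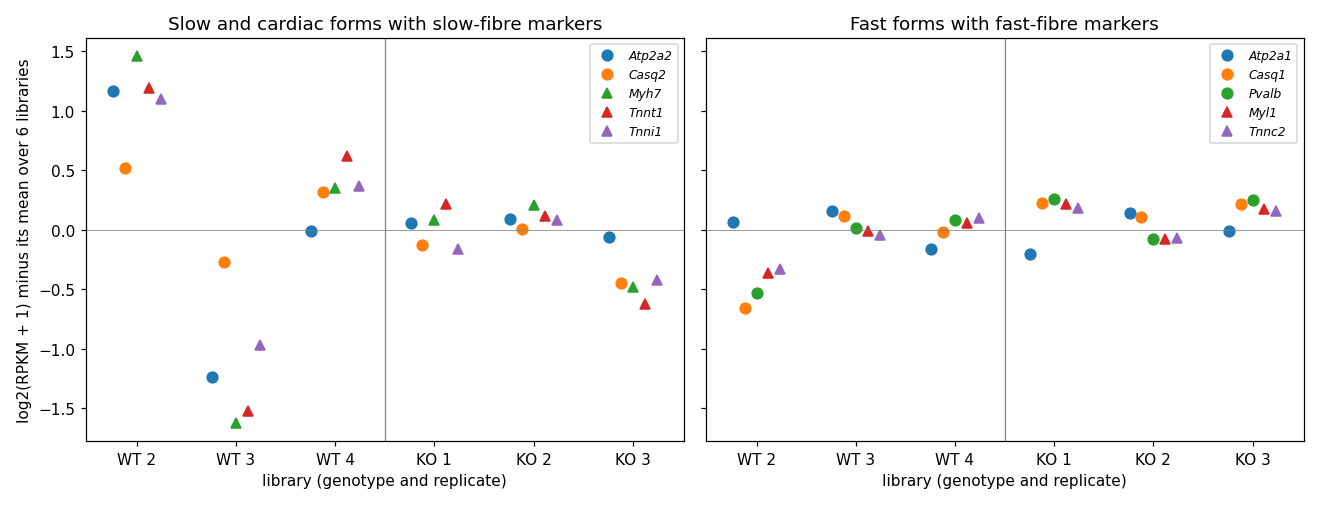
Level of each gene in each library as log2(RPKM + 1) minus the gene's mean over the 6 libraries. Circles are calcium pumps and buffers and triangles are contractile markers chosen as examples. On the left, Atp2a2 is highest in WT replicate 2 and lowest in WT replicate 3 together with Myh7, Tnnt1 and Tnni1. On the right, Casq1 and Pvalb are lowest in WT replicate 2 together with Myl1 and Tnnc2.

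Casq1, the main calcium buffer of the reticulum in skeletal muscle, was at 759, 1293 and 1180 RPKM in WT replicates 2, 3 and 4. It was at 1397, 1289 and 1391 RPKM in KO replicates 1, 2 and 3. WT replicate 2 was the low library, and the groups met where KO replicate 2 (1289) fell just below WT replicate 3 (1293). The log2 fold change was 0.37 (SE 0.19, 95% interval -0.059 to 0.80, limma adjusted p = 0.205), or 0.46 relative to the median of all tested genes. Without WT replicate 2 it was 0.14 (adjusted p = 0.409).

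Casq1 lies on chromosome 1 (172209894 to 172219868, minus strand, GRCm38), and the antisense gene Gm17224 lies within it. Gm17224 shares 156 of its 500 exon bases with exons of Casq1. The table listed it at 686, 1229 and 1167 RPKM in WT and at 1321, 1147 and 1291 RPKM in KO, in the same order of replicates. Casq1 stood at 101 to 112 RPKM per 100 RPKM of Gm17224, and no other profile was as near to that of Casq1 (0.050). Without known strand, reads of the pair cannot be told apart. The next nearest profiles among 1842 genes were Pvalb (0.11), Dhrs7c, a dehydrogenase of the sarcoplasmic reticulum (0.11), and Plcd4, a phospholipase C (0.12), whose exons overlap those of Zfp142. Casq1 varied about its mean by 0.30.

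Casq2, the cardiac calsequestrin, was the least abundant of the 5. It stood at 5.39, 2.69 and 4.55 RPKM in WT replicates 2, 3 and 4 and at 3.08, 3.48 and 2.28 RPKM in KO replicates 1, 2 and 3. WT replicates 2 and 4 lay above every KO library, and WT replicate 3 lay among them. The log2 fold change was -0.38 (SE 0.20, 95% interval -0.84 to 0.094, limma adjusted p = 0.236), or -0.29 relative to the median of all tested genes. Without WT replicate 3 it was -0.61 (adjusted p = 0.0589) and without WT replicate 2 it was -0.21 (adjusted p = 0.505). On the log2(RPKM + 1) scale the change of so low a gene is understated. It was -0.49 in limma-voom on the 381 to 1027 recovered reads per library (adjusted p = 0.221).

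Slow-fibre markers were not among the 4 profiles nearest to Casq2 by the root mean square difference. That measure counts the size of the swings as well as their order. By order alone, Casq2 and the summed slow markers both ran, from high to low, WT replicates 2 and 4, then KO replicates 2 and 1. WT replicate 3 and KO replicate 3 came last for both, in opposite order. The nearest profiles among 1843 genes were Myh11, the smooth muscle myosin heavy chain (0.095), Rcan2, a regulator of calcineurin (0.11), the dehydrogenase gene Dhrs4 (0.12) and the mitochondrial proline tRNA mt-Tp (0.13). Casq2 varied about its mean by 0.33. Myh11 ran from 22.8 to 41.1 RPKM in WT and from 19.1 to 30.3 in KO. Of 6 smooth muscle and pericyte markers 5 were measured, none at 0, and they summed to 63.7 to 104 RPKM in WT and 70.4 to 88.4 in KO. That sum ran, from high to low, WT replicate 2, KO replicates 2 and 1, WT replicate 4, KO replicate 3 and WT replicate 3. Of 8 cardiac markers 2 were measured, Myh6 and Myl4, and they summed to 2.48 to 7.36 RPKM in WT and 2.33 to 3.67 in KO. The part of these cells, or of slow fibres, in the Casq2 values was not tested. Per 100 RPKM of the summed slow markers, Casq2 stood at 0.472 to 1.33 RPKM in the WT libraries and at 0.602 to 0.657 in KO.

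Pvalb, the calcium buffer of the cytosol, stood at 1721, 2515 and 2631 RPKM in WT replicates 2, 3 and 4. It stood at 2972, 2350 and 2961 RPKM in KO replicates 1, 2 and 3. WT replicate 2 was the lowest library and KO replicate 2 lay below WT replicates 3 and 4, so the groups overlapped. The log2 fold change was 0.29 (SE 0.18, 95% interval -0.12 to 0.70, limma adjusted p = 0.295), or 0.38 relative to the median of all tested genes. Without WT replicate 2 it was 0.094 (adjusted p = 0.675). Sensory nerve fibres also make parvalbumin, and nerve markers were lower in KO as given above. Their part in the Pvalb values was not tested.

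The profile nearest to Pvalb among 1842 genes was Myl1, the fast essential light chain (0.077), followed by Gm20659 (0.082), whose exons overlap those of Dusp3. Ube2c and Tnnc2, the fast troponin C gene, came next, each at 0.10. The exons of Ube2c share 592 bases with Tnnc2 on the opposite strand, so their reads cannot be told apart there. Pvalb varied about its mean by 0.27. Myl1 stood at 3408 to 4567 RPKM in the WT libraries and 4166 to 5103 in the KO libraries, again lowest in WT replicate 2. Myh4, the myosin heavy chain of IIb fibres, ran from 31050 to 35804 RPKM in WT and from 40638 to 41918 in KO, lowest in WT replicate 4. Per 100 RPKM of Myh4, Pvalb stood at 5.07 to 8.47 RPKM in the WT libraries and 5.78 to 7.14 in KO.

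The profile of Atp2a1 lay farther from those of Casq1 and Pvalb than these lay from each other. The root mean square difference between the profiles of Casq1 and Pvalb was 0.11, while that between Atp2a1 and Casq1 was 0.36 and that between Atp2a1 and Pvalb was 0.36. The profiles nearest to Atp2a1 were Fxr1, an RNA-binding protein gene (0.041), Wwp1, a ubiquitin ligase (0.043), the kinase gene Riok3 (0.050) and the transporter gene Abcb4 (0.055), against its own variation of 0.14. Per 100 RPKM of Atp2a1, Pvalb stood at 89.2, 122 and 160 RPKM in WT replicates 2, 3 and 4 and at 187, 116 and 162 RPKM in KO replicates 1, 2 and 3. Casq1 per 100 RPKM of Atp2a1 ran from 39.4 to 71.8 RPKM in WT and from 63.4 to 87.7 in KO, and the groups overlapped.

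The slow or cardiac form made up under 1% of each pair in every library. Atp2a2 was 0.955%, 0.131% and 0.464% of the summed Atp2a1 and Atp2a2 RPKM in WT replicates 2, 3 and 4. It was 0.504%, 0.406% and 0.401% in KO replicates 1, 2 and 3, so the KO libraries lay inside the WT range. The log2 ratio of Atp2a1 to Atp2a2 was 8.01 ± 1.46 in WT muscle and 7.84 ± 0.19 in KO muscle (SD, n = 3 each), a difference of -0.16 (exact two-sided permutation test, p = 0.9). Without WT replicate 3 that difference was 0.62 (exact permutation p = 0.2) and without WT replicate 2 it was -0.82 (exact permutation p = 0.3).

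Casq2 was 0.705%, 0.208% and 0.384% of the summed Casq1 and Casq2 RPKM in WT replicates 2, 3 and 4 and 0.220%, 0.269% and 0.163% in KO replicates 1, 2 and 3. WT replicates 2 and 4 were above the KO libraries and WT replicate 3 was among them. The log2 ratio of Casq1 to Casq2 was 8.02 ± 0.89 in WT muscle and 8.87 ± 0.36 in KO muscle (SD, n = 3 each), a difference of 0.85 (exact two-sided permutation test, p = 0.3). The smallest p this test can give with 3 against 3 libraries is 0.1. A ratio within a library does not depend on its total. Without WT replicate 2 the difference was 0.41 (exact permutation p = 0.5) and without WT replicate 3 it was 1.29 (exact permutation p = 0.1).

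**Figure D3:**
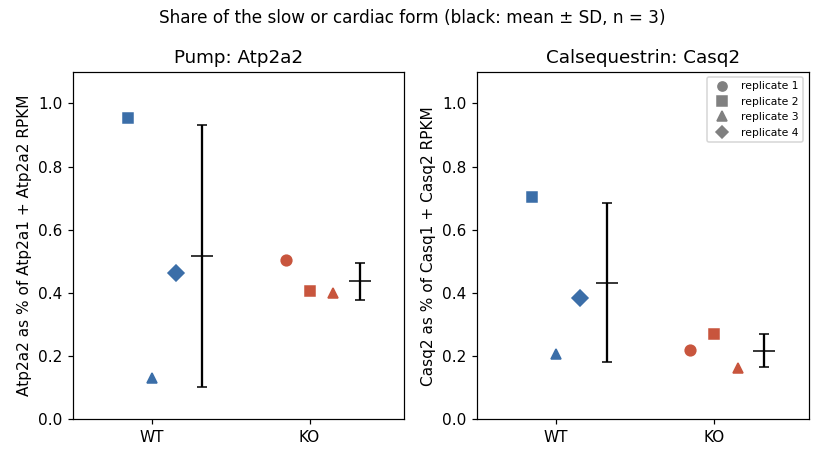
Atp2a2 as a percentage of the summed Atp2a1 and Atp2a2 RPKM (left) and Casq2 as a percentage of the summed Casq1 and Casq2 RPKM (right), per library (points) with the mean ± SD of each genotype (black, n = 3). All shares lie below 1%, and WT replicate 2 is the highest library in each panel.

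Among the myosin genes that define fibre types, 2 of 4 fell, beside 13.5% of all tested genes. Myh1, the myosin of IIx fibres, was lower in KO (log2 fold change -1.09, SE 0.25, limma adjusted p = 0.0225), as was Myh2, the myosin of IIa fibres (-0.90, SE 0.21, adjusted p = 0.0261). Both calls ended without WT replicate 2, WT replicate 3, KO replicate 1 or KO replicate 3 (adjusted p of 0.0543 to 0.0906 for Myh1 and 0.059 to 0.103 for Myh2). Myh4 was at 0.30 (adjusted p = 0.0885) and passed with libraries scaled without the 10 most abundant genes (0.48, adjusted p = 0.0323). Myh7 was at -0.13 (adjusted p = 0.914). The intervals of Casq1 and Pvalb, which are given above, held both 0 and the value of Myh4.

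Other genes of calcium handling fell into 5 lists of 59 genes, of which 48 were measured and 39 tested. Of these 4 were called higher and 2 lower, beside 3.83% higher and 13.5% lower of all tested genes. Of the 2, Orai3 could enter the test only as lower, as given below. The median log2 fold change of the 39 was 0.040, beside -0.089 for all tested genes, with 25 above 0 and 14 below. The lists were described by these counts only.

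Of 7 regulators and partners of SERCA 4 were tested, and limma called none of them, at an unadjusted p under 0.05 either, nor did limma-voom. The smallest p was that of Hrc, a histidine-rich calcium binder of the reticulum, at 981 ± 67.9 RPKM in WT muscle and 1121 ± 56.7 in KO muscle (SD, n = 3 each; log2 fold change 0.19, adjusted p = 0.189). Its groups did not overlap. It passed with libraries scaled without the 10 most abundant genes (log2 fold change 0.38, adjusted p = 0.0441). Sln, Pln and Strit1, small peptides that act on the pump, were not analysed here.

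Of 10 other pumps and exchangers 4 were tested, and 1 fell. This was Atp2c1, the calcium and manganese pump of the Golgi, at 2.30, 2.12 and 1.59 RPKM in WT and 1.06, 1.12 and 1.04 RPKM in KO (log2 fold change -0.53, SE 0.096, limma adjusted p = 0.0103). The change of so low a gene is understated on the log2(RPKM + 1) scale. It was -0.83 with a pseudocount of 0.1 and -0.88 in limma-voom. All 3 KO values were below all WT values. Without KO replicate 3 the call ended (adjusted p = 0.0523). In the authors' deposited table its FDR was 0.0911. The plasma membrane pump gene Atp2b1 stood at 3.62 ± 0.542 RPKM in WT muscle and 3.56 ± 0.734 in KO muscle (SD, n = 3 each).

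Of 17 genes of calcium release and the triad 14 were tested, and 2 rose. Jph2, a junctophilin that ties the reticulum to the transverse tubule, was at 22.7, 26.0 and 28.7 RPKM in WT and at 40.7, 47.2 and 44.4 RPKM in KO (log2 fold change 0.75, SE 0.10, limma adjusted p = 0.00467). Asph, whose gene also encodes junctin, a partner of calsequestrin at the release channel, went from 32.2 ± 0.707 to 38.8 ± 1.01 RPKM (SD, n = 3 each; log2 fold change 0.26, limma adjusted p = 0.0438). Its groups did not overlap, but its call ended when any 1 of the 6 libraries was left out (adjusted p of 0.0612 to 0.165). The call also ended with the replicate number as a block, a fit that compares only replicates 2 and 3 (adjusted p = 0.0711). The release channel Ryr1 stood at 125 ± 15.0 and 138 ± 14.1 RPKM, and Trdn, triadin, at 535 ± 44.3 and 556 ± 40.7 RPKM, in WT and KO (SD, n = 3 each). Neither passed (limma adjusted p of 0.437 and 0.723).

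Of 13 other calcium-binding proteins 9 were tested, and 1 rose. This was Calm3, a calmodulin gene, which went from 72.5 ± 7.47 to 105 ± 1.66 RPKM (SD, n = 3 each; log2 fold change 0.53, SE 0.095, limma adjusted p = 0.00967). Calm2, another calmodulin gene, chosen after its values were seen, missed the threshold at a like size (log2 fold change 0.53, adjusted p = 0.0524), and its groups did not overlap. It passed in 4 of 12 alternatives, with adjusted p running from 0.0106 to 0.168 over all of them. Calr, calreticulin, the buffer of the endoplasmic reticulum in other cells, and Rcn3, a reticulocalbin, were not called. Ocm, a close relative of parvalbumin, was not analysed here.

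Of 12 genes of mitochondrial and store-operated calcium entry 8 were tested, with 1 higher and 1 lower. Stim2, a calcium sensor of the reticulum, was at 3.95, 3.39 and 3.11 RPKM in WT and 5.22, 5.99 and 5.86 RPKM in KO (log2 fold change 0.58, SE 0.096, limma adjusted p = 0.00771). Its log2 fold change was 0.71 in limma-voom. Orai3, a subunit of the store-operated channel, went from 1.17 ± 0.0828 to 0.711 ± 0.25 RPKM (SD, n = 3 each; log2 fold change -0.35, limma adjusted p = 0.0494). The change of so low a gene is understated on the log2(RPKM + 1) scale, and it was -0.74 in limma-voom. Orai3 lay under 1 RPKM in every KO library and passed the filter through WT only, so it could enter the test only as lower. With any 1 WT replicate left out Orai3 failed the filter and was not tested. Its call ended under equal library medians (adjusted p = 0.121), a pseudocount of 0.1 (0.053), totals without the 10 most abundant genes (0.125) and limma-voom (0.054), and without KO replicate 2 (0.145) or 3 (0.169).

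**Figure D4:**
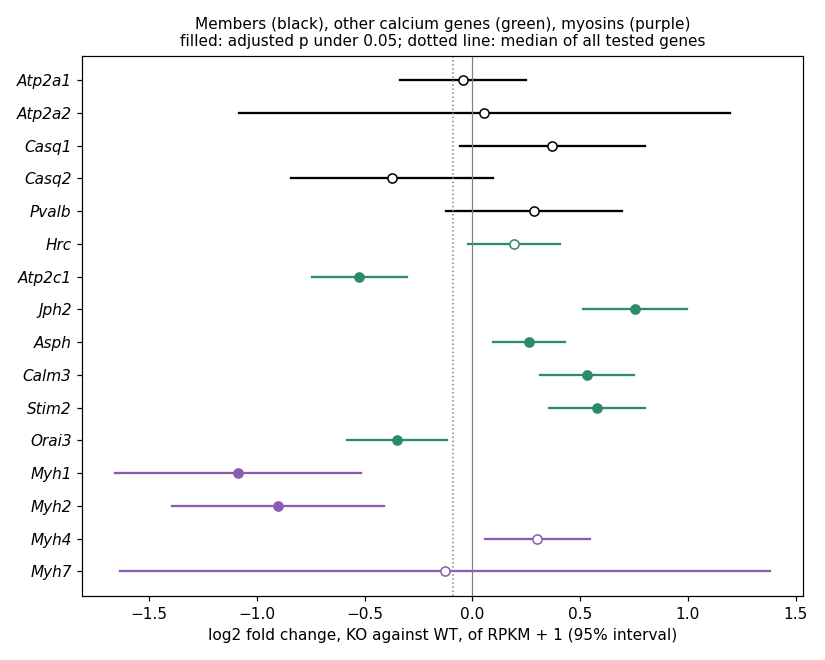
Log2 fold change of RPKM + 1 in KO against WT with its 95% interval for the 5 members (black), the named genes of the calcium lists (green) and the fibre-type myosins (purple). Filled points have an adjusted p under 0.05 and the dotted line is the median of all tested genes at -0.089. The intervals of all 5 members reach across 0.

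In the authors' deposited table the FDR was 0.204 for Pvalb, 0.275 for Casq1, 0.447 for Casq2, 0.688 for Atp2a1 and 0.855 for Atp2a2. The authors' deposited table gives log2 fold changes of 0.39, 0.37, -0.26, 0.094 and -0.22 for these genes in that order. For Atp2a1 and Atp2a2 the sign in the authors' deposited table is opposite to that of the limma fit. Among Hrc, Atp2c1, Jph2, Asph, Calm3, Stim2 and Orai3, only Jph2 and Stim2 had an FDR under 0.05 in the authors' deposited table, at 0.046 and 0.0495. The other calcium genes named, Calm2 among them, were not looked up there.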

How the data were processed

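The authors made cDNA from fragmented gastrocnemius mRNA with random hexamers, per the labels' protocols, in 3 WT and 3 KO libraries, whose groups and replicate numbers the titles give. The build GRCm39 stands in the submitters' processing notes. The aligner, counter, annotation and use of strand are not given in the sources. The unit of the values the authors deposited is not named in the header and was taken as RPKM from the values. Multiplied by GENCODE M21 exon lengths and a library total, they came out whole in every library (to within 0.02 of a read) for 80.4% of 11482 genes, the 5 members included. The authors' log2 fold change, log2 CPM, F score, p-value and FDR columns are named per the file headers.

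The test was limma-trend with empirical Bayes (limma 3.58.1, R 4.3.3), run on log2(RPKM + 1) values of genes that reached 1 RPKM in 3 or more libraries, and genotype was its only term. On simulated data with 200 of 7574 genes changed, it recovered 61.2% of 1.5-fold and 95.5% of 2-fold changes, and 4% of its calls were false. The simulation shuffled the SDs among genes, drew noise independently for each gene and held no shift of scale. In the data 1311 genes were called and scaling mattered. Those rates therefore need not hold for the data, nor for a gene of wide spread such as Atp2a2. Alternatives were a pseudocount of 0.1, no filter, equal library medians, summed RPKM without the 10 most abundant genes, single replicates left out, the replicate number as a block and an unadjusted p. The block fit compares genotypes within replicate numbers 2 and 3 only, since WT replicate 4 and KO replicate 1 have no partner. Limma-voom on recovered reads was chosen after the data were seen. The members and lists were chosen with earlier results of these data known. Named genes were the members, up to 4 called genes per list or the one with the smallest p, the 4 profiles nearest to each member among tested genes of mean RPKM of at least 10, and 4 myosins. Other genes were named after their values were seen. From the lists, 1 gene is not reported here and was left out of their counts. Start regions come from RefSeq (GRCm38.p6), with 4 of 5 members matched, and gene coordinates from GENCODE M21 (GRCm38), not the build of the notes. Python 3.11.15, pandas 2.3.3, numpy 2.4.6 and matplotlib 3.10.9 did the rest.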

Additional observations from a re-analysis of the deposited data

How the results depend on the processing

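No member passed under any alternative at the adjusted threshold. At an unadjusted p under 0.05, 2 of 5 passed with totals without the 10 most abundant genes, 2 without WT replicate 3 and 3 with replicate number as a block. The block fit rests on replicates 2 and 3 of each genotype. Casq1 and Pvalb stayed above 0 and Casq2 below 0 under the 12 alternatives, at 0.14 to 0.55, 0.094 to 0.47 and -0.61 to -0.21. Atp2a1 turned to 0.084 with equal library medians and 0.14 without the 10 most abundant genes. With single replicates left out it ran from -0.14 to 0.047, Atp2a2 from -0.55 to 0.65 and the log2 ratio of Atp2a1 to Atp2a2 from -0.82 to 0.62. Myh7 turned to 0.053 without the 10 most abundant genes and ran from -0.97 to 0.57 with single replicates left out. The cause was not tested. The genes called over the whole table numbered 1311, 438 to 1479 with single replicates left out, and 2532 at an unadjusted p.

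The list counts were small and moved by single genes. SERCA regulators went from 0 to 1 called without the 10 most abundant genes. Other pumps and exchangers went from 1 to between 0 and 1 with replicates left out and to 2 at an unadjusted p. Calcium release and triad genes went from 2 to 1 with any replicate left out and to 1 with the replicate block. Calcium-binding proteins went from 1 to 2 with equal library medians, with the replicate block and in limma-voom, to 3 without the 10 most abundant genes and at an unadjusted p, and to between 1 and 2 with replicates left out. Mitochondrial and store-operated entry went from 2 to 1 with a pseudocount of 0.1, with equal library medians, without the 10 most abundant genes and in limma-voom, and to between 1 and 2 with replicates left out. With any 1 WT replicate left out Orai3 was not tested.

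Replicate numbers 2 and 3 occur in each genotype, and nothing in the labels says that a number marks a shared origin. Same-numbered libraries deviated together from their group means (r = 0.48 for number 2 and 0.27 for number 3, across genes). WT replicate 4 and KO replicate 1, which share no number, did so too (r = 0.43), but this is no separate check. The deviations of the 3 libraries of a group cancel out, so those of WT replicate 4 and KO replicate 1 follow from numbers 2 and 3. Whether a number marks a shared origin was not tested. With the number as a block, WT replicate 4 and KO replicate 1 have no partner. That fit therefore compares genotypes within numbers 2 and 3 only, with few degrees of freedom, and is not on a par with the fit to all 6 libraries. It called 1548 genes, none of them a member (limma adjusted p for Pvalb 0.0514, Casq2 0.0874, Casq1 0.103, Atp2a1 0.764, Atp2a2 0.948). The mean difference within numbers 2 and 3 was -0.19 for the log2 ratio of Atp2a1 to Atp2a2 and 0.87 for Casq1 to Casq2. The counting error of the members was at most 5.12% (Casq2), if reads are taken as independent, and the part of depth was not tested.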
